A study of Mus musculus with 5 samples.

Results

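The genes described here make leukotrienes and prostaglandins, the lipid mediators known as eicosanoids. They are 10 of the 55487 genes in a table of counts from RNAseq of aortic macrophages, and they were chosen by name. Of these, *Alox5ap*, *Alox5*, *Lta4h* and *Ltc4s* form the leukotriene branch (4 genes), *Ptgs1*, *Ptgs2*, *Ptges*, *Ptges3* and *Hpgds* the prostaglandin branch (5 genes), and *Pla2g7* acts on the related mediator platelet-activating factor. Each symbol matched a single row of the table. The study compared 2 libraries of *Zeb1* WT/*Apoe* KO macrophages (*Zeb1* WT below) with 3 libraries of *Zeb1* ∆M/*Apoe* KO macrophages (*Zeb1* ∆M below), to learn which genes depend on the transcription factor ZEB1. All mice were male, lacked *Apoe* and carried floxed *Zeb1* alleles, and in the *Zeb1* ∆M mice Cre was expressed from the endogenous *Lyz2* (*LysM*) locus, so that deletion follows *Lyz2* activity in myeloid cells and is not limited to macrophages. They ate Chow for 8 weeks and a Western diet for 10 weeks, and were 18 weeks old at the end. Live cells positive for CD45, CD11b and F4/80 were sorted out of digested aortas, and the study's methods state that cells of 3 mice were mixed from each genotype. The methods also describe the study's replicates in general as independent. The labels tie no library to its own mice, and p-values measure the spread between these libraries, whether it is biological or technical.

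Eicosanoids are made from arachidonic acid, which phospholipases release from membranes. 5-Lipoxygenase, presented with its substrate by the membrane protein FLAP, makes leukotriene A4, which is turned into leukotriene B4, an attractant of leukocytes, or into the cysteinyl leukotrienes, which constrict vessels and airways. The cyclooxygenases make prostaglandin H2, from which terminal synthases form prostaglandin E2, prostaglandin D2, thromboxane and others. Macrophages are a known source of both classes, and both have been studied in atherosclerotic plaques.

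Total counts lay between 20118545 and 50649912 per library, so that a floor of 3 counts corresponds to 0.0592 to 0.149 on the counts-per-million scale (CPM). This floor covers counting error only, since amplified reads are not independent molecules. *Zeb1* had 0 counts in both *Zeb1* WT libraries and 22, 0 and 0 counts in *Zeb1* ∆M libraries, so it did not check the labels. *Apoe*, deleted in all mice, had 0 to 86 counts, and *Lyz2*, the macrophage gene that drives Cre, had 161607 to 869804 counts. *Zeb1* ∆M replicate 1 stood apart: it had the most genes with at least 1 count (20919, against 7395 to 10689 in the other 4 libraries) and the fewest with at least 100 counts (870, against 1714 to 4421). Of 12 macrophage markers, 8 to 11 exceeded 3 counts in each library, and their summed level, in CPM of total counts, was 32894 to 33150 in the *Zeb1* WT libraries and 23059 to 35896 in the *Zeb1* ∆M libraries. Single markers were absent from single libraries. *Mertk* had 22 counts in *Zeb1* ∆M replicate 1 and 0 counts in the other 4 libraries. *Cd68* and *C1qa* had 0 counts in *Zeb1* WT replicate 1, and *Fcgr1* had 0 counts there and in *Zeb1* ∆M replicate 3. In *Zeb1* ∆M replicate 1, *Itgam*, which encodes CD11b, had 0 counts, *C1qa* had 5, *Cd68* had 10 and *Csf1r* had 25, and its sum came mainly from *C1qb* (398502 counts) and *Lyz2*. T cell markers (6 genes) summed to 4307 CPM in *Zeb1* WT replicate 2 and to 956 CPM in *Zeb1* ∆M replicate 3, the highest values, and to 10.3 CPM in *Zeb1* WT replicate 1, 0.821 CPM in *Zeb1* ∆M replicate 1 and 433 CPM in *Zeb1* ∆M replicate 2. Neutrophil markers (8 genes) summed to 880 to 3592 CPM in the *Zeb1* WT libraries and to 138 to 1505 CPM in the *Zeb1* ∆M libraries. *S100a8* had 33862 and 11811 counts in *Zeb1* WT and 33132, 22405 and 962 counts in *Zeb1* ∆M libraries. *S100a9* reached 29483 counts in *Zeb1* WT replicate 1, and *Csf3r* reached 17767 and *Retnlg* 9370 in *Zeb1* ∆M replicate 2. By contrast, *Cxcr2* had at most 105 counts, *Mmp9* at most 5, *Ly6g* at most 1 and *Ngp* 0. The part of neutrophils in the results below was not tested. Of the mast cell markers (8 genes), *Cpa3*, *Mcpt4*, *Ms4a2* and *Fcer1a* had 0 counts throughout, and the list stayed at or below 55.6 CPM. The platelet list (6 genes) summed to 690 to 855 CPM and to 124 to 4128 CPM in the respective genotypes, most of it from *Pf4*, which macrophages also express. Its members *Itga2b*, *Gp9*, *Gp1bb* and *Gp1ba* did not exceed 12 counts. B cell, dendritic cell, smooth muscle and endothelial markers stayed at or below 72.3 CPM in every library, and fibroblast markers did so in all but *Zeb1* ∆M replicate 2 (531 CPM, from *Dcn*). In sorted bulk samples like these, fewer cells of a type and less RNA per cell cannot be told apart.

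*Alox5ap* encodes FLAP, the membrane protein that hands arachidonic acid to 5-lipoxygenase (ENSMUSG00000060063.9, chr5:149264767-149288153 of GRCm38). It had 3863 and 21512 counts in *Zeb1* WT and 47, 36908 and 57427 counts in *Zeb1* ∆M replicates 1, 2 and 3. It was counted in all 5 libraries and was the most abundant leukotriene gene in each, and the genotypes overlapped because the lowest value and the 2 highest values all came from *Zeb1* ∆M libraries. On the transcripts-per-million scale (TPM), which divides counts by exon length so that genes can be compared, its levels were 263 and 1069 in the *Zeb1* WT libraries and 2.36, 1540 and 1763 in the *Zeb1* ∆M libraries.

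*Alox5*, the 5-lipoxygenase that FLAP serves (ENSMUSG00000025701.12, chr6:116410077-116461178), had 0 and 3553 counts in *Zeb1* WT and 0, 0 and 70 counts in *Zeb1* ∆M libraries. The enzyme was thus counted in a single library of each genotype, while its partner was counted in all. In *Zeb1* ∆M replicate 2, *Alox5ap* had 36908 counts and *Alox5* had 0. Even in *Zeb1* WT replicate 2, where *Alox5* was highest, its level per length was 61.1 TPM, against 1069 TPM for *Alox5ap*.

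*Lta4h*, whose product converts leukotriene A4 into leukotriene B4 (ENSMUSG00000015889.8, chr10:93453411-93484875), had 0 and 10134 counts in *Zeb1* WT and 8, 0 and 17704 counts in *Zeb1* ∆M libraries. It was high in the libraries in which *Alox5* was counted, namely replicate 2 of the former genotype and replicate 3 of the latter. These libraries also held the most T cell marker RNA, as given above. They had the most genes with at least 100 counts as well (4421 and 4140, against 870 to 3173 in the others). The part of T cells, or of this wider detection, in the result was not tested. *Ltc4s*, the synthase of leukotriene C4, the first cysteinyl leukotriene (ENSMUSG00000020377.15, chr11:50236461-50238616), had 1419 and 4428 counts in *Zeb1* WT and 0, 9456 and 3785 counts in *Zeb1* ∆M libraries. It was counted in 4 libraries, all but *Zeb1* ∆M replicate 1, where *Alox5ap* too was lowest. *Alox5ap* and *Ltc4s* together made up 100% of the summed TPM of the branch in *Zeb1* WT replicate 1 and *Zeb1* ∆M replicate 2, and between 88.5% and 96.2% in the other 3 libraries.

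**Figure D1:**
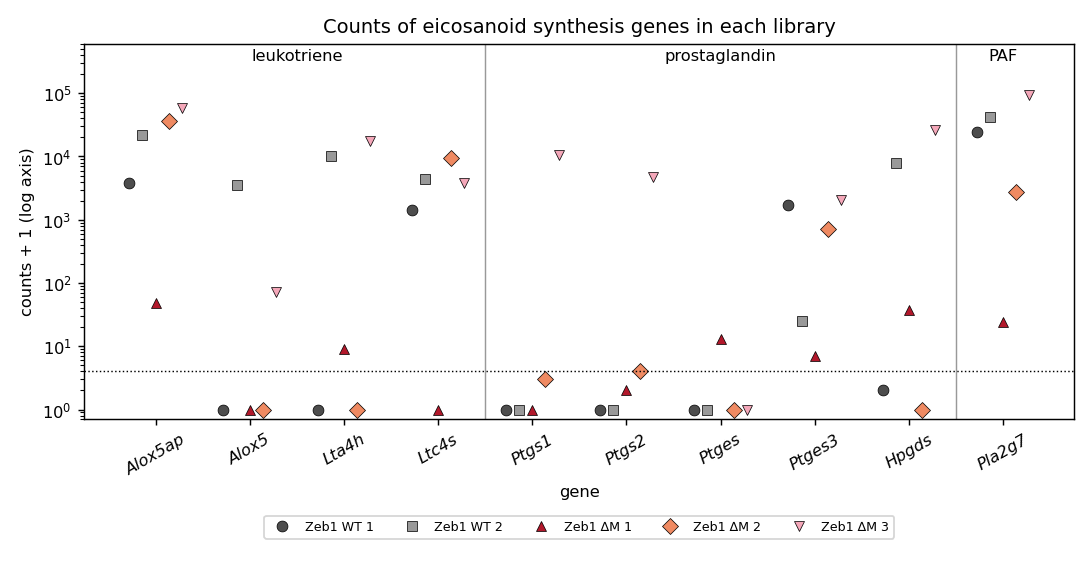
Counts plus 1 (log axis) of the 10 genes in each of the 5 libraries, with 1 point per library (grey for *Zeb1* WT, red shades for *Zeb1* ∆M) and a dotted line at the floor of 3 counts. *Alox5ap*, *Ptges3* and *Pla2g7* lie above the floor in all 5 libraries, whereas *Ptgs1* and *Ptgs2* do so only in *Zeb1* ∆M replicate 3.

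Of the prostaglandin genes, the cyclooxygenases *Ptgs1* (COX-1, the constitutive enzyme, ENSMUSG00000047250.13, chr2:36230426-36252272) and *Ptgs2* (COX-2, the inducible enzyme, ENSMUSG00000032487.8, chr1:150100031-150108227) catalyse the committed step. *Ptgs1* had 0 counts in both *Zeb1* WT libraries and 0, 2 and 10400 counts in *Zeb1* ∆M libraries. *Ptgs2* likewise had 0 counts in both *Zeb1* WT libraries and 1, 3 and 4790 counts in *Zeb1* ∆M libraries. Both enzymes were therefore counted above the floor in a single library, *Zeb1* ∆M replicate 3, and stayed at or below it in the other 4. That library also had the most total counts (50649912). In that library *Ptgs1* reached 117 TPM and *Ptgs2* 45.6 TPM, and of the platelet list *Pf4* had 76758 counts, *Ppbp* had 2326, *Gp1bb* had 1 and *Itga2b*, *Gp9* and *Gp1ba* had 0. *Ppbp* was also counted in *Zeb1* WT replicate 2 (2814 counts), where both cyclooxygenases had 0 counts, and it had at most 2 counts in the other 3 libraries. The part of platelets in the result was not tested. Neither gene passed the filter on low counts, so neither entered the test across genes.

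ZEB1 binds E-box sequences of the form CACCTG, and the 250 bases before the RefSeq start sites (GRCm38.p6) were searched for these letters on both strands. Windows were found for 9 of the 10 genes, all but *Alox5ap*. Those of *Ptgs2* and *Hpgds* held a match (2 of 9), while 17.2% of all 32851 windows did. A match describes the letters only, and no binding was measured. The stretches of both genes are shown with that of *Ptgs1*, since the cyclooxygenases were counted in the same library but only *Ptgs2* held the full match. Shorter parts of these letters were not searched for and can occur in any stretch. Capitals mark the E-box, and each runs 5′ to 3′ on the strand of its gene. The *Ptgs2* stretch is chr1:150099781-150100030 (plus strand), the *Ptgs1* stretch is chr2:36230176-36230425 (plus strand), and the *Hpgds* stretch is chr6:65144909-65144980 (minus strand), the 72 bases of its window that lie outside the GENCODE gene.
*Ptgs2*: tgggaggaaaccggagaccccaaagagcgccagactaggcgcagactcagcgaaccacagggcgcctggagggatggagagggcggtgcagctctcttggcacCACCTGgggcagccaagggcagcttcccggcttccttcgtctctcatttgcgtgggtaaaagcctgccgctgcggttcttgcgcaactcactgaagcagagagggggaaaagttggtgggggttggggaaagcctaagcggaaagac
*Ptgs1*: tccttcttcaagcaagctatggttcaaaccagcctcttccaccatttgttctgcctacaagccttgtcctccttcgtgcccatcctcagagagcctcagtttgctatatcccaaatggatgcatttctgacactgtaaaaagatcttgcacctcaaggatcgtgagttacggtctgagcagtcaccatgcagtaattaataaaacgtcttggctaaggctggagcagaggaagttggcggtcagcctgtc
*Hpgds*: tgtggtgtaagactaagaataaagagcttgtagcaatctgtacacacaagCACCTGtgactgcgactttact

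*Ptges*, the inducible membrane-bound prostaglandin E synthase (ENSMUSG00000050737.13, chr2:30889471-30929863), had 12 counts in *Zeb1* ∆M replicate 1 and 0 counts in the other 4 libraries. *Ptges3*, the cytosolic form, whose product p23 is also a co-chaperone of HSP90 (ENSMUSG00000071072.12, chr10:128058954-128077272), was instead counted everywhere. It had 1725 and 24 counts in *Zeb1* WT and 6, 721 and 2029 counts in *Zeb1* ∆M libraries. Its highest and lowest values within each genotype lay far apart, and the genotypes overlapped. Its pseudogene *Ptges3-ps* had 0 counts in all 5 libraries, and copies under other names were not examined.

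*Hpgds*, the hematopoietic prostaglandin D synthase (ENSMUSG00000029919.5, chr6:65117293-65144908), had 1 and 7935 counts in *Zeb1* WT and 37, 0 and 26278 counts in *Zeb1* ∆M libraries. It was high in the same pair of libraries as *Lta4h* and at or near 0 counts in *Zeb1* WT replicate 1 and *Zeb1* ∆M replicate 2. Mast cells also express *Hpgds* and *Ltc4s*, and the mast cell list summed to 0.0592 CPM in *Zeb1* ∆M replicate 3, where *Hpgds* was highest, and to 32.5 CPM in *Zeb1* WT replicate 2, all of it from *Hdc* (1124 counts). It was highest, at 55.6 CPM, in *Zeb1* ∆M replicate 1, where *Hpgds* had 37 counts and *Ltc4s* 0. The part of mast cells in the result was not tested.

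*Pla2g7* encodes lipoprotein-associated phospholipase A2, the secreted hydrolase of platelet-activating factor that travels on lipoproteins (ENSMUSG00000023913.17, chr17:43568098-43612201). It had 24339 and 41782 counts in *Zeb1* WT and 23, 2746 and 95059 counts in *Zeb1* ∆M libraries. Both *Zeb1* WT values exceeded those of *Zeb1* ∆M replicates 1 and 2, yet the highest value of all came from *Zeb1* ∆M replicate 3. Ordered by the median TPM over the 5 libraries, *Alox5ap* (1069) was followed by *Pla2g7* (809), *Ltc4s* (163) and *Ptges3* (19.3), and the other 6 genes had a median at or below 0.410. The ranges of all neighbours in this order overlapped, from 2.36 to 1763 TPM for *Alox5ap*, from 0.564 to 1427 TPM for *Pla2g7*, from 0 to 553 TPM for *Ltc4s* and from 0.193 to 75.1 TPM for *Ptges3*.

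The branches were then compared within each library by summing the TPM of their genes. The leukotriene genes summed to 398 and 1555 TPM in the *Zeb1* WT libraries and to 2.45, 2093 and 2053 TPM in the *Zeb1* ∆M libraries. The prostaglandin genes summed to 75.1 and 87.9 TPM in the *Zeb1* WT libraries and to 0.836, 19.3 and 381 TPM in the *Zeb1* ∆M libraries. The leukotriene sum was higher in all 5 libraries, by 5.29 and 17.7 times in the *Zeb1* WT libraries and by 2.93, 108 and 5.40 times in the *Zeb1* ∆M libraries. In *Zeb1* ∆M replicate 1 both sums rested on few reads, 55 counts for the leukotriene genes and 56 for the prostaglandin genes, and the order held there only after division by exon length. The sizes depended on this division in every library. As log2 ratios with 1 added to each sum, they were 2.39 and 4.13 in *Zeb1* WT and 0.91, 6.69 and 2.43 in *Zeb1* ∆M. From undivided counts they were 1.61 and 2.32 in *Zeb1* WT and −0.03, 5.99 and 0.86 in *Zeb1* ∆M.

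The ratio between the branches did not separate the genotypes. On the log2 scale, with 1 TPM added to each sum, it was 3.26 ± 1.23 (SD, n = 2) in the *Zeb1* WT libraries and 3.34 ± 2.99 (SD, n = 3) in the *Zeb1* ∆M libraries. The difference of 0.082 was far smaller than the spread within either genotype. Its sign also depended on single libraries and genes, being 1.30 without *Zeb1* ∆M replicate 1, −1.59 without *Zeb1* ∆M replicate 2, −0.79 without *Zeb1* WT replicate 1 and −1.52 when *Ptges3* was left out. What made up the prostaglandin sum changed from library to library. *Ptges3* gave 100% of it in *Zeb1* WT replicate 1 and 99.6% in *Zeb1* ∆M replicate 2, whereas *Hpgds* gave 99.1% in *Zeb1* WT replicate 2. Only in *Zeb1* ∆M replicate 3 did the cyclooxygenases contribute more than 2%, with 42.7% beside 46.9% from *Hpgds*. The leukotriene sum was led by *Alox5ap* in every library, with 66.0% to 96.2% of it.

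**Figure D2:**
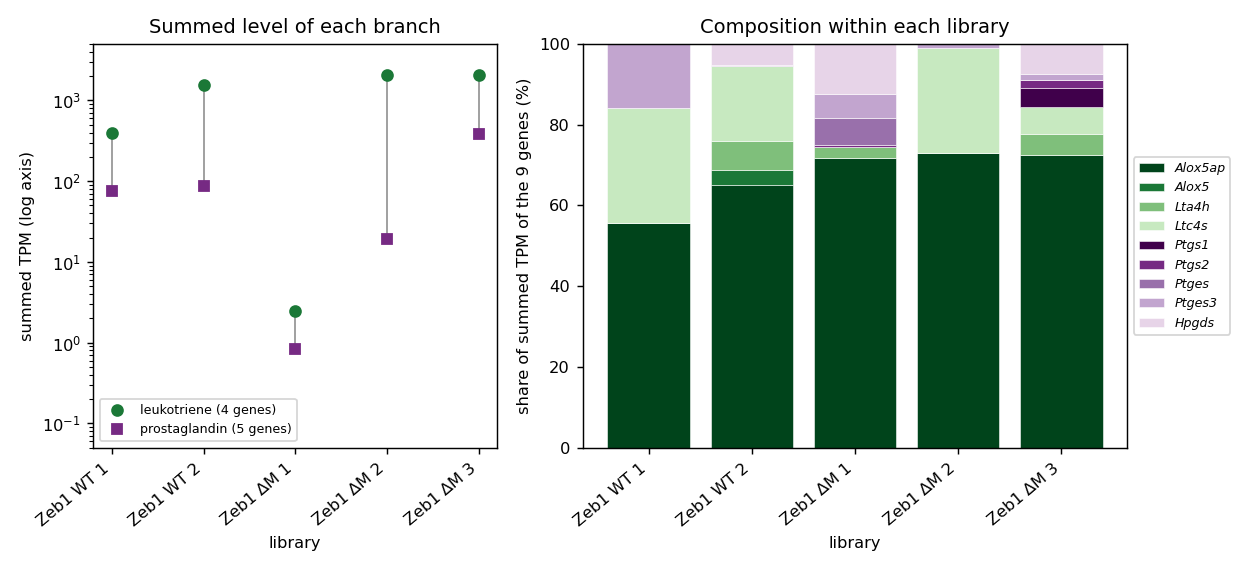
Left, summed TPM (log axis) of the 4 leukotriene genes (circles) and the 5 prostaglandin genes (squares) in each library, joined by a line. Right, the share of each of the 9 genes in their summed TPM, with leukotriene genes in green and prostaglandin genes in purple; *Alox5ap* takes 55.5% to 72.9% of it in every library.

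Which of the 10 genes were counted at all varied between libraries of the same genotype. More than 3 counts were found for 4 and 7 genes in the *Zeb1* WT libraries and for 6, 4 and 9 genes in the *Zeb1* ∆M libraries. *Zeb1* WT replicate 1 and *Zeb1* ∆M replicate 2 shared the same 4 genes, *Alox5ap*, *Ltc4s*, *Ptges3* and *Pla2g7*, where 64.3% and 54.3% of the counted genes of the respective libraries were shared among the genes that reached 1000 counts in some library. All 7 genes of *Zeb1* WT replicate 2 were among the 9 of *Zeb1* ∆M replicate 3, which added the cyclooxygenases, and the shares for this pair of libraries were 70.2% and 71.7%. In *Zeb1* ∆M replicate 1 no member exceeded 47 counts. As a background, 5694 genes of the table reached 1000 counts in some library, as all members but *Ptges* did, and of these 46.5% and 71.1% exceeded 3 counts in *Zeb1* WT and 63.7%, 55.0% and 69.6% in the *Zeb1* ∆M libraries. Of those 5694 genes, 16.2% exceeded 3 counts in all 5 libraries, beside 3 of the 9 members among them, and 11.6% did so in a single library, beside 2 of these 9 members (*Ptgs1* and *Ptgs2*).

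No member differed between the genotypes in the quasi-likelihood test of edgeR, adjusted by Benjamini-Hochberg over the 7905 genes tested. Of the 10 members, 7 passed the filter on low counts, and 0 of these had an adjusted p under 0.05 or an unadjusted p under 0.05, where over all genes tested the shares were 0% and 1.09%. DESeq2 assigned an adjusted p to 4 members and called 0 of them, the lowest being 0.287 for *Alox5*, while it called 12.1% of 6519 genes. Without that filter 27091 genes could be fitted, of which 0.639% had an unadjusted p under 0.05 and 0 of the 10 members did. In 0 of the 7 tested members did the CPM of the genotypes fall into separate ranges, against 11.2% of all genes tested. *Ptgs2*, which was not tested, was above 0 in all 3 *Zeb1* ∆M libraries, but at 3 counts or fewer in replicates 1 and 2. Two-sided exact permutation tests on single members gave p between 0.4 and 1, where 2 libraries against 3 cannot give less than 0.1.

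The values behind these tests spread widely within each genotype. After TMM normalization, *Alox5ap* had 382 ± 343 CPM (SD, n = 2) in *Zeb1* WT and 670 ± 594 CPM (SD, n = 3) in *Zeb1* ∆M libraries, and edgeR gave a log2 fold change of 0.81 with a standard error of 3.28 (adjusted p = 1). *Ltc4s* had 89.9 ± 54.5 and 98.8 ± 112 CPM (SD, n = 2 and 3), and *Pla2g7* had 1047 ± 234 and 653 ± 1074 CPM. *Alox5* had the largest fitted change, −6.77 on the log2 scale (edgeR, adjusted p = 1, standard error 5.54), which became 7.05 without *Zeb1* WT replicate 2, the library that held nearly all its counts. The fitted log2 fold changes of the 7 members had a median of −0.32, with 3 of 7 above 0. Over all 7905 genes the median was 0.78, with 60.9% above 0, so that the centre of the fit itself lay above 0. Without *Zeb1* ∆M replicate 1, the median over 5050 genes fitted was 0.14, with 52.4% above 0, and the median of the members was 0.19.

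For several other members, too, the sign rested on which libraries were present. *Hpgds* (0.61, standard error 4.33) moved to −6.01 without *Zeb1* ∆M replicate 3 and to 12.14 without *Zeb1* WT replicate 2. *Lta4h* (−0.32, standard error 4.37) moved to 15.02 without the latter library. *Ptges3* (−0.71, standard error 4.71) moved to 4.90 without *Zeb1* WT replicate 1. *Pla2g7* (−0.68, standard error 2.91) kept its sign with each library left out, between −4.99 without *Zeb1* ∆M replicate 3 and −0.07 without *Zeb1* ∆M replicate 2, and *Alox5ap* kept its sign between 0.17 and 2.28. The sign for *Alox5ap* depended on the measure, however. On the log2(CPM + 1) scale of the permutation tests, its mean was lower in *Zeb1* ∆M by a difference of −0.81. *Ltc4s* (−1.68) and *Hpgds* (−0.27), also fitted above 0 by edgeR, were likewise lower on that scale.

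**Figure D3:**
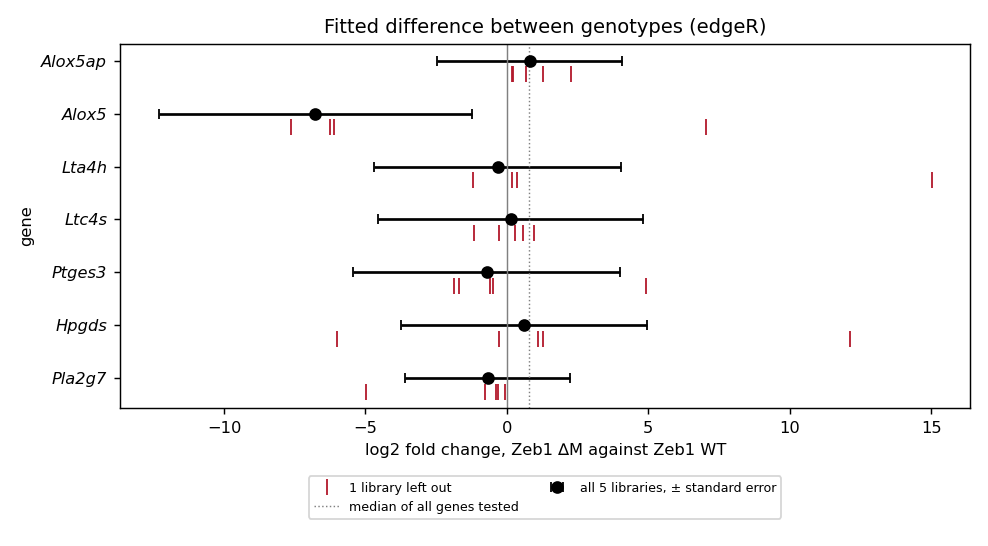
Fitted log2 fold changes of the 7 tested members, *Zeb1* ∆M against *Zeb1* WT, as points with standard errors, with ticks for fits that leave out 1 library and a dotted line at the median of all genes tested (0.78). All standard errors are between 2.91 and 5.54, and every bar but that of *Alox5* includes 0.

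The rest of the pathway was read from lists of 81 further symbols, an older and a newer symbol of *Prxl2b* included, of which 79 were found in the table as 80 rows. Of these rows, 21 had 3 counts or fewer in every library and 27 passed the filter on low counts. None of the 27 had an adjusted p under 0.05 by edgeR (0 genes), 1 had an unadjusted p under 0.05, and their median log2 fold change was 0.26, with 16 above 0. *Pla2g4a*, the cytosolic phospholipase best known for releasing arachidonic acid, had at most 1 count in any library. *Pla2g15*, a lysosomal phospholipase, had 108 and 9456 counts in *Zeb1* ∆M replicates 2 and 3 and at most 1 count elsewhere. *Lpcat3*, which returns arachidonic acid to membrane phospholipids, had 4277 counts in *Zeb1* WT replicate 2 and at most 15 elsewhere. *Lpcat2*, which makes platelet-activating factor, had 0 and 12232 counts in *Zeb1* WT and 0, 2926 and 8416 counts in *Zeb1* ∆M libraries.

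The receptor list held receptors of eicosanoids and platelet-activating factor, and also *Fpr1*, *Fpr2*, *Cmklr1* and *Pparg*. Of its 19 genes found in the table, 13 stayed under 100 counts in every library. At least 100 counts were reached by 1 and 2 of the 19 in *Zeb1* WT and by 2, 1 and 4 in *Zeb1* ∆M libraries. Over all 55487 genes, the numbers were 1714 and 4421 in *Zeb1* WT and 870, 3173 and 4140 in *Zeb1* ∆M libraries. *Ltb4r1*, the high-affinity receptor of leukotriene B4, had 0 counts in all 5 libraries, and *Cysltr1* had at most 2. *Ptafr*, the receptor of platelet-activating factor, was the most widely counted, with 1623 and 11294 counts in *Zeb1* WT and 4, 10779 and 11867 counts in *Zeb1* ∆M libraries. The thromboxane receptor *Tbxa2r* had 0 and 6802 counts and 0, 4 and 3629 counts in the same order. *Ptger4*, a prostaglandin E2 receptor, reached 2779 counts in *Zeb1* ∆M replicate 3 and at most 28 elsewhere. Of 6 transporters that carry eicosanoids across membranes, only *Slco2a1* reached 100 counts, with 117 in *Zeb1* ∆M replicate 1, where *Abcc1*, the exporter of leukotriene C4, had 42 and *Slc22a6* had 26. *Fpr1*, a formyl peptide receptor from the receptor list, was counted in that library alone, at 7858. Of the subunits of an intracellular hydrolase of platelet-activating factor, *Pafah1b2* reached 12065 counts in *Zeb1* ∆M replicate 3, *Pafah1b1* reached 2239 in *Zeb1* ∆M replicate 2 and *Pafah1b3* reached 1683 in *Zeb1* WT replicate 2.

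Several enzymes of the other lists were, like *Hpgds* and *Lta4h*, low in *Zeb1* WT replicate 1. Of the 5694 genes that reached 1000 counts in some library, 46.5% exceeded 3 counts there. *Hpgd*, which inactivates prostaglandins, had 0 and 7018 counts in *Zeb1* WT and 15, 0 and 13205 counts in *Zeb1* ∆M libraries, high where *Hpgds* and *Lta4h* were high. *Prxl2b*, which can reduce prostaglandin H2 to prostaglandin F2α, had 4836 counts in *Zeb1* WT replicate 2, 545 in *Zeb1* ∆M replicate 3 and 0 in the others. *Cyp4f18*, which oxidizes leukotriene B4, had 0 and 12512 counts and 0, 37278 and 46658 counts in the same order. *Gpx4*, a peroxidase of lipid hydroperoxides, had 0 and 10602 counts and 0, 8847 and 14932 counts. Each of these 4 genes was at 15 counts or fewer in *Zeb1* WT replicate 1 and *Zeb1* ∆M replicate 1. In *Zeb1* ∆M replicate 2, *Hpgd* and *Prxl2b* had 0 counts like *Hpgds* and *Lta4h*, whereas *Cyp4f18* and *Gpx4* were high.

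In 5 of the 27 tested genes the genotypes fell into separate ranges, 4 of them higher and 1 lower in the *Zeb1* ∆M libraries, where over all genes tested the shares are 6.68% and 4.54%. The widest separation was that of *Dpep2* (ENSMUSG00000053687.15), a membrane dipeptidase that converts leukotriene D4 into leukotriene E4. It had 17 and 1 counts in *Zeb1* WT and 4375, 8340 and 45702 counts in *Zeb1* ∆M libraries, that is, 0.322 ± 0.415 CPM (SD, n = 2) and 489 ± 374 CPM (SD, n = 3) in the respective genotypes. The fitted log2 fold change was 10.55 (edgeR, adjusted p = 1, standard error 6.02), and DESeq2, which called 12.1% of its genes, gave 10.09 with an adjusted p of 0.0076. The gene is named for this separation and passed the filter on low counts through the *Zeb1* ∆M libraries, so its values are a description. A second row of the table carries the same symbol, so reads could be split between them. *Acsl3*, *Ptgr2* and *Cmklr1* were the others higher in every *Zeb1* ∆M library, but with only 12, 18 and 8 counts in replicate 1. *Cmklr1* had only 12 counts in replicate 2 too, and 2432 in replicate 3. *Acsl4*, which activates arachidonic acid for storage in membranes, was the gene lower in each, with 1889 and 1146 counts in *Zeb1* WT and 0, 726 and 749 counts in *Zeb1* ∆M libraries.

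*Akr1b3*, an aldo-keto reductase that can form prostaglandin F2α, was the gene with an unadjusted p under 0.05. It had 0 and 9 counts in *Zeb1* WT and 118744, 2 and 13742 counts in *Zeb1* ∆M libraries. The genotypes overlapped, and the adjusted p from edgeR was 1. It passed the filter on low counts through *Zeb1* ∆M replicates 1 and 3 alone, and its values are a description. In *Zeb1* ∆M replicate 1, which held most of its counts, no member exceeded 47 counts.

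**Figure D4:**
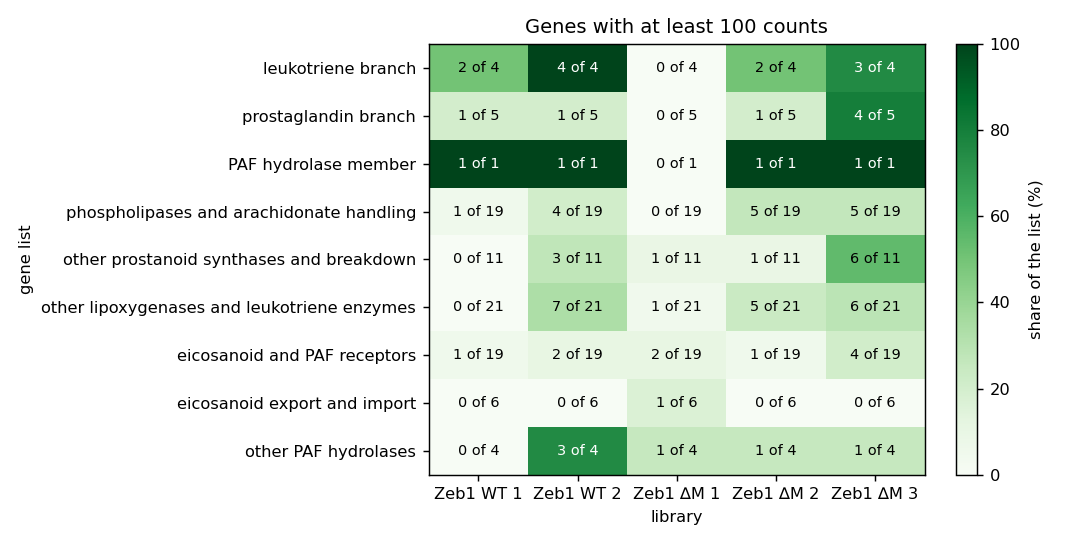
Number of genes with at least 100 counts in each library for the 3 groups of members and 6 lists of other pathway genes, shaded by the share of the list. *Zeb1* ∆M replicate 1 has 0 members at this level, and *Zeb1* ∆M replicate 3 has 8 of 10.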

How the data were processed

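The authors sorted aortic macrophages, made cDNA with the SMART-Seq v4 kit, aligned the read pairs (STAR 2.5.3a, GRCm38) and quantified genes with RSEM 1.3.0, the versions being those of the submitters' processing notes. The deposited values are expected counts from RSEM, whole numbers that were neither normalized nor filtered, and 55487 genes in 5 libraries were analysed here. Groups are the genotypes named in the labels. The 10 members and all gene lists were chosen with earlier results of these data known.

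Counts were tested with edgeR 4.0.16 in R 4.3.3 (filterByExpr with a minimum count of 10, TMM, quasi-likelihood test, no covariates, Benjamini-Hochberg adjustment over 7905 genes). The standard error of a fold change is its size divided by the root of the F statistic. Exact permutation tests used log2(CPM + 1). TMM factors ranged from 0.515 to 1.42. TPM were computed from the counts and merged exon lengths of GENCODE M21 (GRCm38), which lacked 260 of the genes. SMART-Seq v4 cDNA does not keep strand, so reads of a gene and of an antisense partner cannot be told apart. Of the members, *Alox5ap*, *Ltc4s*, *Ptgs1* and *Pla2g7* share exon bases with an antisense gene, which had at most 176 counts. Besides the members, genes were named by a rule: the 3 with the highest mean TPM of each pathway list, and those with an unadjusted p under 0.05 or without overlap. *Pla2g4a*, *Ltb4r1*, *Cysltr1*, *Ptger4* and marker genes outside it were chosen after their values were seen. Alternatives were DESeq2 1.42.0, RLE size factors, no filter, the replicate number as a block and each library left out. Promoter stretches are from RefSeq, and figures used matplotlib 3.10.9. Reads were not analysed here.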

Additional observations from a re-analysis of the deposited data

How the results depend on the processing

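The count of members past the threshold stayed at 0 under DESeq2, RLE size factors, no filter, the replicate block and each library left out. Over all genes, edgeR called 0 genes under the same changes, and DESeq2 called 790 (unadjusted p under 0.05 for 86 genes with edgeR). Directions were not stable for single members. Under the replicate block, the log2 fold change turned to −2.34 for *Alox5ap*, −5.18 for *Ltc4s* and −3.56 for *Hpgds*. That of *Ltc4s* (0.14) also turned to −0.12 with DESeq2 and −0.20 with RLE size factors, and that of *Lta4h* to 0.20 without a filter. With 1 library left out in turn, it ranged from −7.65 to 7.05 for *Alox5*, −1.19 to 15.02 for *Lta4h*, −1.18 to 0.96 for *Ltc4s*, −1.88 to 4.90 for *Ptges3* and −6.01 to 12.14 for *Hpgds*; where 1 *Zeb1* WT library was left, it was assumed to vary like the other genotype. Of the changes other than a left-out library, 22 of 28 kept the direction. The count of tested members without overlap ranged from 0 to 1 with 1 library left out (*Alox5*, *Ptges3*, *Alox5ap* or *Pla2g7*, while 20.5% to 39.4% of all genes were then without overlap). The cause of these changes was not tested. Replicate numbers occur in both genotypes for 2 pairs, whose differences had a correlation of 0.18 across genes, so the numbers were not taken to pair the libraries; the block left 7 genes at an unadjusted p under 0.05. Scalings moved the median of all genes tested from 0.78 to 1.24 with RLE size factors. The fold changes of *Dpep2* and *Akr1b3* were examined in the same way after seeing the data, and kept their direction (which the choice of *Dpep2* by its separation fixes when a library is left out; the adjusted p of *Dpep2* was 1 with edgeR, 0.0076 with DESeq2 and 0.655 to 1 under the other changes; *Akr1b3* could not be fitted without *Zeb1* ∆M replicate 1 or 3). The cyclooxygenases were at or below the floor of 3 counts in 4 of 5 libraries and *Ptges* had 0 counts in 4, so each was counted above the floor in 1 library.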
